A study of Mus musculus with 2 samples.

Results

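The family of miR-15, miR-16, miR-195 and miR-497 was examined across 2 mouse epidermal keratinocyte lines, Pam212 and its metastatic derivative LY-1. The family was taken as 5 rows of the deposited array table, chosen by miRBase mature accession out of 739: miR-15a-5p (MIMAT0000526), miR-15b-5p (MIMAT0000124), miR-16-5p (MIMAT0000527), miR-195a-5p (MIMAT0000225) and miR-497-5p (MIMAT0003453). All 5 had an intensity on both arrays, which was the case for 354 rows, or 47.9% of the table. The members were set by name and shared sequence, though earlier results of these data were known when they were chosen.

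Pam212 is a Balb/c keratinocyte line that became transformed spontaneously and is labelled as non-metastatic. LY-1 was derived from it and is labelled as metastatic, so it stands for 1 derived line only. Both were grown to confluence, untreated, in DMEM with 10% fetal calf serum, and 1 plate and 1 array represent each line. Every difference below is thus one between 2 single arrays, with no replicate spread to set it against, and none could be tested. The rows other than these 5 carry accessions without names, so the keratinocyte label could not be checked against marker miRNAs here.

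MicroRNAs guide silencing complexes to messenger RNAs through pairing of their seed, the bases near the 5′ end, and so lower the output of those messages. Members of the miR-15/16 family share a seed and therefore a large set of potential targets, among them messages for cyclins D and E, CDK6, the checkpoint kinases Chk1 and Wee1 and the survival factor Bcl2. They are known as brakes on entry into the cell cycle, and the loss of the miR-15a and miR-16-1 locus with its host DLEU2 in human chronic lymphocytic leukaemia made them one of the first miRNA families classed as tumour suppressors.

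The mature sequences are shown because the shared seed defines the family and the bases after it are what distinguish its members. They come from RefSeq (GRCm38.p6), in which all 5 names were found, miR-497-5p as miR-497a-5p. Each is written 5′ to 3′ with the seed, bases 2 to 8, in capitals.
miR-15a-5p: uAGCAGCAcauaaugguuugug
miR-15b-5p: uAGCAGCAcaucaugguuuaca
miR-16-5p: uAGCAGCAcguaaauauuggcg
miR-195a-5p: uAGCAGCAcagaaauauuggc
miR-497-5p: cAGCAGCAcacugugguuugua
All 5 carried the seed AGCAGCA. Among the 1679 mature names in RefSeq's list, 10, or 0.596%, had these letters at positions 2 to 8. The other 5 were miR-322-5p, miR-195b, miR-6342, miR-6353 and miR-6419, and miR-503-5p shared bases 2 to 7 but not base 8. No value is given for these 6, because no row of the array could be matched to their names.

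Beyond the seed the members fell into different degrees of likeness. Aligned from base 1 without gaps, miR-16-5p and miR-195a-5p were identical at 19 of 21 positions and differed by G10A and U11G, with the miR-16-5p base first and positions counted from the 5′ end. miR-15a-5p and miR-15b-5p were identical at 18 of 22 positions and differed by A12C, G20A, U21C and G22A, with the miR-15a-5p base first. miR-16-5p and miR-497-5p were the least alike of the 10 pairs, with 11 of 22 positions identical. The share of G and C ran from 40.9% in miR-15a-5p and miR-15b-5p to 50% in miR-497-5p.

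The members come from 3 loci, and miR-16-5p comes from more than one. On chromosome 3, miR-15b-5p (chr3:69009775-69009796, plus strand) and miR-16-5p (chr3:69009918-69009939, plus strand) lie within Smc4, which encodes a condensin subunit that helps compact mitotic chromosomes. Their hairpins are 66 bases apart. On chromosome 14, miR-15a-5p (chr14:61632075-61632096, minus strand) and a further copy of miR-16-5p (chr14:61631936-61631957, minus strand) lie within the long non-coding RNA gene Dleu2. On chromosome 11, miR-497-5p (chr11:70234730-70234751, plus strand) and miR-195a-5p (chr11:70235062-70235082, plus strand) have hairpins 241 bases apart. No protein-coding gene in RefSeq overlapped either of them, and Mir497 overlapped the gene of another miRNA, Mir497b.

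The hairpins of 3 of these genes are shown because they show which sources an array probe can and cannot tell apart. Capitals mark the mature 5p arm, and all coordinates are from GRCm38.p6.
Mir15b (chr3:69009772-69009835, plus strand): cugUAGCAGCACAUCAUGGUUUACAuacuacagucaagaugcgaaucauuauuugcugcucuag
Mir16-2 (chr3:69009902-69009996, plus strand): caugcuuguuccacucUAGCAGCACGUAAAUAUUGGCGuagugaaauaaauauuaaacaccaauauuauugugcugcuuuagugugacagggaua
Mir16-1 (chr14:61631880-61631972, minus strand): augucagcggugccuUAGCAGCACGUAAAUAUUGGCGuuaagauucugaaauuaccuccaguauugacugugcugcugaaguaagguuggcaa
The capital stretches of Mir16-1 and Mir16-2 are the same, so a probe for mature miR-16-5p cannot separate the loci. The mature sequences of miR-15b-5p and miR-15a-5p were each listed at a single locus, on chromosome 3 and chromosome 14.

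The 5 members did not all read in one direction between the arrays, but with 1 array per line a split within the family is not established. In the deposited intensities the members of the chromosome 3 and chromosome 14 loci read higher in LY-1. Both members of the chromosome 11 locus read lower, at signals under the median of all values on both arrays. miR-15b-5p showed the greatest increase of the 5 members, 2.57-fold, followed by miR-16-5p at 1.85-fold and miR-15a-5p at 1.32-fold. miR-195a-5p was 1.67-fold and miR-497-5p 1.57-fold lower in LY-1.

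**Figure D1:**
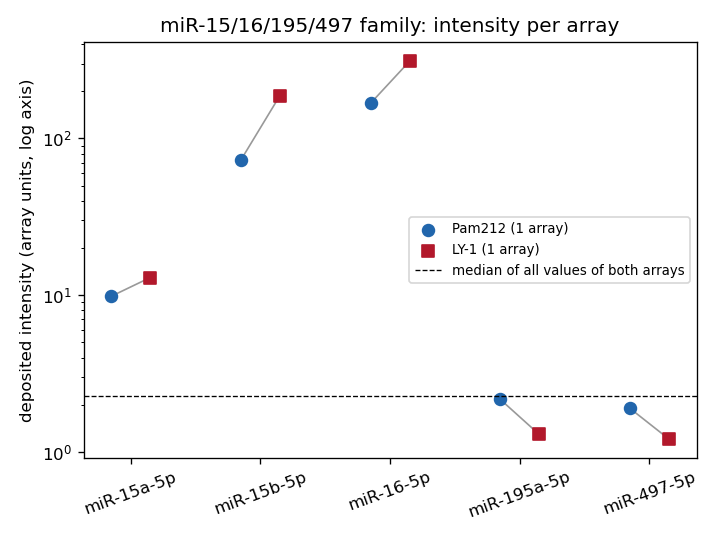
Deposited intensity of each family member (array units, log axis) in Pam212 (circles) and LY-1 (squares), 1 array each, with a grey line joining the 2 values of a member. miR-15a-5p, miR-15b-5p and miR-16-5p lie above the dashed median of all values (2.26) and slope upwards, whereas miR-195a-5p and miR-497-5p lie below it and slope downwards.

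miR-15b-5p is processed from an intron-borne cluster in Smc4 and carries the family seed. Its intensity was 73.0 array units in Pam212 against 188 in LY-1, and the log2 difference, LY-1 minus Pam212, was 1.36. Both values lay well above the dim end of the arrays: 89.3% of the measured probes were dimmer in Pam212 and 92.9% in LY-1. Brightness also depends on how well each probe captures its target, so it places a signal on the scale and does not rank the abundance of different miRNAs. Of the 252 probes past the brightness floor, 18, or 7.14%, had a greater increase in LY-1 than miR-15b-5p. The floor was the median of all values on both arrays, 2.26 units, and a probe passed it if either of its values did.

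miR-16-5p, the founding member of the family with miR-15a-5p, was the brightest probe of the 5 on both arrays. Its signal went from 168 units in Pam212 to 311 in LY-1, or by 0.89 on the log2 scale, and 39 of the 252 probes past the floor, or 15.5%, had a greater increase. Its difference was therefore short of 2-fold, unlike that of miR-15b-5p, with which it shares the chromosome 3 cluster. Because the chromosome 14 copy has the same mature sequence, the part of each locus in it could not be separated.

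miR-15a-5p, listed at the Dleu2 locus only, was measured closer to the middle of the scale. The reading was 9.85 units in Pam212 against 13.0 in LY-1, which differ by 0.40 on the log2 scale. Increases of more than this size were common, with 75 of the 252 probes past the floor, or 29.8%, above it. The direction of this small difference also depended on the scaling. With both arrays brought to one 75th percentile of their measured values it was -0.093, and after quantile normalization it was 0.071.

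miR-195a-5p and miR-497-5p are made from neighbouring hairpins, and in mouse heart miR-195 is known for its part in the withdrawal of cardiomyocytes from the cell cycle after birth. miR-195a-5p gave 2.16 units in Pam212 against 1.29 in LY-1, and its log2 difference was -0.74. miR-497-5p gave 1.90 units against 1.21, and its log2 difference was -0.65. The gap between these differences was 0.09 on the log2 scale and reached 0.17 under another way of processing, and at such dim readings it is no measure of likeness.

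Both probes of the chromosome 11 locus lay under the floor on both arrays. For miR-195a-5p and miR-497-5p in turn, the readings were 2.29 and 2.01 times the lowest intensity in Pam212. In LY-1 they were 1.36 and 1.28 times the lowest. Of the measured probes, 50% and 43.5% were dimmer than these members in Pam212, and 22.4% and 17.4% in LY-1. Among the 102 probes measured on both arrays but under the floor, 14, or 13.7%, read at least 1.5-fold lower in LY-1. miR-195a-5p and miR-497-5p were among these 14. At least 1.5-fold higher were 5 of the 102, or 4.90%. Past the floor, 17.1% of the 252 probes were at least 1.5-fold lower. Counting the member itself, 10 of the 102 probes, or 9.80%, had a difference as low as that of miR-195a-5p. For miR-497-5p it was 11, or 10.8%. Of these 102 probes, 56, or 54.9%, were lower in LY-1 by any amount. With a pseudocount of 1.02, the 5th percentile of all values, added to both arrays, the log2 differences were -0.46 for miR-195a-5p and -0.39 for miR-497-5p. With one 75th percentile they were -1.23 and -1.14, past 2-fold, under a scaling that lowered the median of all 354 probes too. How the authors subtracted background is not given, so whether these 4 readings stand above the background of the arrays is unknown.

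**Figure D2:**
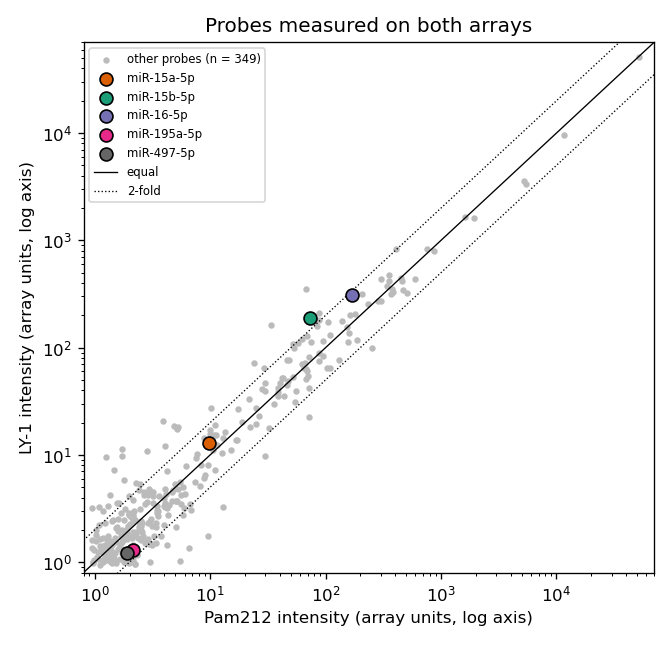
LY-1 intensity against Pam212 intensity (array units, both axes log) for the 354 probes measured on both arrays, with the 5 family members in colour and the other 349 in grey. The solid line marks equal intensity and the dotted lines a 2-fold difference. miR-15b-5p lies just outside the upper dotted line, miR-16-5p just inside it, and miR-195a-5p and miR-497-5p lie in the dim cloud at the lower left.

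The counts of members were set beside those of the whole array. Of the 3 members past the floor, 1 was at least 2-fold higher in LY-1, where 12.7% of the 252 probes past the floor were. None of the 3 was at least 2-fold lower, where 6.35% of the probes were. At a threshold of 1.5-fold, 2 of the 3 were higher, where 25% of the probes were, and all 3 were higher by any amount, where 51.6% of the probes were. The median log2 difference was 0.89 over these 3 members, beside 0.03 over the 252 probes. Over all 5 members it was 0.40, the value of miR-15a-5p, beside -0.003 over the 354 probes measured on both arrays. With so few members these counts describe the probes and carry no test.

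The call for miR-15b-5p rested on the scaling. Its log2 difference was 0.96 after quantile normalization and 0.87 with one 75th percentile, both short of 2-fold, and no member past the floor was then called. The latter scaling also moved the median difference of all 354 probes by -0.49. Relative to that shift the members keep their places, because a common factor moves every difference alike. It also turned the array-wide split from 32 probes at least 2-fold higher and 16 lower to 17 higher and 48 lower, and quantile normalization made it 27 and 22.

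Differences between members do not depend on a common factor and so bear more directly on whether the family changed unequally. The increase of miR-15b-5p exceeded that of miR-15a-5p by 0.96 on the log2 scale, a 1.95-fold change in their ratio between the arrays. This gap ran from 0.89 to 0.99 over the 9 ways of processing that were run. miR-15b-5p exceeded its cluster neighbour miR-16-5p by less, 0.47, with a range of 0.37 to 0.47. The widest gap, between miR-15b-5p and miR-195a-5p, was 2.10, with a range of 1.68 to 2.10, and its dim side rests on readings under the floor. The order of the 5 differences was miR-15b-5p, miR-16-5p, miR-15a-5p, miR-497-5p and miR-195a-5p in all 9. Only quantile normalization, the lowess trend and the pseudocount could have altered this order or the gaps. Without replicate arrays, no pair of neighbours in this order can be said to differ beyond error.

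**Figure D3:**
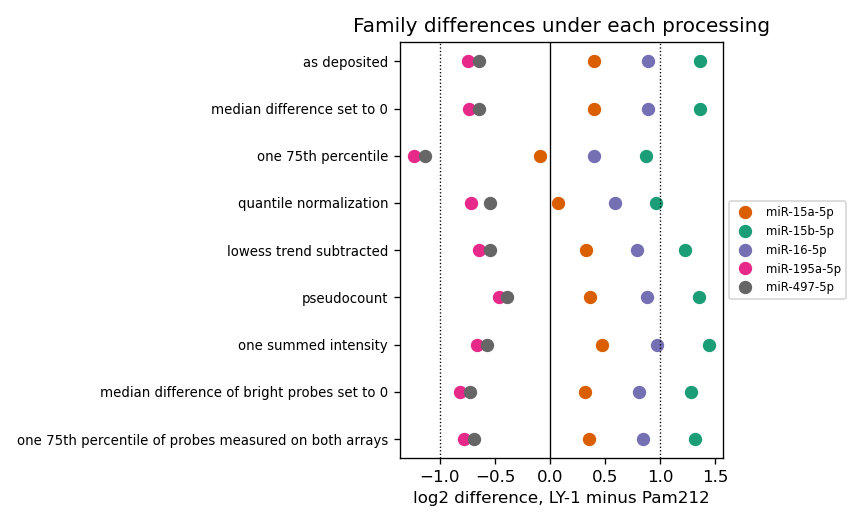
Log2 difference, LY-1 minus Pam212, of the 5 members (colours) under the 9 ways of processing (rows), with dotted lines at a 2-fold difference and a solid line at 0. miR-15b-5p and miR-16-5p lie to the right of 0 and miR-195a-5p and miR-497-5p to the left in every row, whereas miR-15a-5p lies at -0.093 in the row for one 75th percentile.

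The 2 members closest in sequence, miR-16-5p and miR-195a-5p, which differ at G10A and U11G only over the 21 bases compared, read 168 and 2.16 units in Pam212 and 311 and 1.29 units in LY-1. The gap between their log2 differences was 1.63 in the deposited values and ran from 1.31 to 1.63 over the 9 ways of processing. Those that apply a common factor could not change it. The miR-195a-5p side was under the floor on both arrays. The 2 probes may differ in how well they capture their targets, so their brightness is not compared as abundance. The probes' own sequences were not used here, and cross-capture between members was not tested.

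The 3 members past the floor belong to a set of probes whose readings leant towards LY-1. All 3 carry accession numbers under 1000. So does miR-195a-5p, which was under the floor and read lower in LY-1. The 103 probes past the floor with such numbers, the 3 members among them, had a median log2 difference of 0.29. It was -0.18 for the 147 with later numbers. A 2-fold or greater increase in LY-1 was seen for 17 of the 103, or 16.5%, beside the 12.7% of all 252 probes, and a 2-fold or greater decrease for 7. Measured from the median of that set, miR-15b-5p stood 1.07, miR-16-5p 0.59 and miR-15a-5p 0.10 higher on the log2 scale. The part of this lean of the early-numbered probes in the family's readings was not tested.

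The probes closest to the members in reading were found by the distance between their pairs of log2 intensities over the 2 arrays. The nearest to miR-15b-5p was MIMAT0000657, at 72.5 units in Pam212 and 179 in LY-1, a distance of 0.07. The nearest to miR-16-5p was MIMAT0000522, at 209 and 315 units and a distance of 0.31. MIMAT0003468 lay nearest to miR-195a-5p, at a distance of 0.07, and MIMAT0004930 nearest to miR-497-5p, at 0.12. With 2 arrays this likeness says that the readings are close and nothing more, and these 4 accessions could not be named here. Each array sampled RNA from a whole culture, so a change in the share of cells with a miRNA and a change in its amount per cell cannot be told apart.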

How the data were processed

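Total RNA from each line was labelled with Hy5 by the miRCURY LNA kit, per the labels' protocols, and hybridised to 1-colour arrays. The authors deposited 1 linear intensity per probe and array. The scanner, the background correction, the scaling and centring, the combining of duplicate spots and the meaning of null cells are not given in the sources used here. Measured values had a median of 2.16 for Pam212 and of 2.44 for LY-1. Over the 354 probes measured on both arrays they were 3.21 and 3.31, a gap of 0.05 on the log2 scale and under the limit of 0.1, so the deposited intensities were used as they are.

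Differences are log2 LY-1 minus log2 Pam212 without a pseudocount. Counts used probes whose brighter value reached 2.26 units and a 2-fold threshold. No test was run, since each line has 1 array and the number of arrays limits the precision. The members, lists and thresholds were chosen with earlier results of these data known. The members are named by the accession-to-name pairing that defined the family. Lists of other miRNAs and of cell type markers, to be matched by name, were not used, because no row could be matched to a name. The rule for named probes was the 5 members and the 2 nearest to each in reading, of which 4 are given, since they carry no names. Mature sequences came from RefSeq (GRCm38.p6).

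Alternatives changed the scaling, pseudocount, floor and threshold. Scripts ran under Python 3.11.15 with numpy 2.4.6, pandas 2.3.3, statsmodels 0.14.6 (lowess, span 0.5) and matplotlib 3.10.9, and were tested on simulated data.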

Additional observations from a re-analysis of the deposited data

How the results depend on the processing

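A difference was taken to have moved when it changed by at least 0.1 on the log2 scale, a working limit, since the arrays give no error. With both arrays at one 75th percentile of their measured values (9.71 in Pam212 and 13.6 in LY-1), the differences were -0.093 for miR-15a-5p, which was also the median of the 5 members, 0.87 for miR-15b-5p, 0.40 for miR-16-5p, -1.23 for miR-195a-5p and -1.14 for miR-497-5p. Members called past the floor fell to 0, with 17 probes higher and 48 lower. miR-195a-5p and miR-497-5p were past 2-fold here but under the floor, and so were not counted. This scaling counts probes that the other array lacks. Over probes measured on both arrays, a choice made after seeing the data, miR-15a-5p was 0.35 and miR-15b-5p 1.32. After quantile normalization the values were 0.071 for miR-15a-5p and for the median, 0.96 for miR-15b-5p, 0.59 for miR-16-5p and -0.54 for miR-497-5p, with 0 members called. After the lowess trend they were 1.22 for miR-15b-5p, 0.79 for miR-16-5p and -0.55 for miR-497-5p. The pseudocount gave -0.46 for miR-195a-5p and -0.39 for miR-497-5p and left 8 probes lower. Scaling to one 75th percentile of measured values shifted every difference alike, by -0.49. A pseudocount makes any difference smaller, most of all for dim readings. What lies behind the other moves was not tested. At 1.5-fold, 2 members, 63 higher and 43 lower probes were counted, and at 3-fold 0, 15 and 7. Fewer probes enter under stricter floors: 17 higher and 4 lower of 121 at the pooled 75th percentile, and 18 and 6 of 186 with both values at the floor. Scaling to one summed intensity and centring on bright probes, also added later, moved no member by 0.1 and kept 1 member called. No paired analysis was possible because each line has 1 array, and for the same reason no replicate could be left out.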
